A study of Mus musculus with 11 samples.

Results

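The epidermal kallikreins and their inhibitor were followed here as 10 genes: the tissue kallikreins Klk5, Klk6, Klk7, Klk8, Klk9, Klk10, Klk11, Klk13 and Klk14, and Spink5. They were picked by symbol, mapped from the Ensembl identifiers of the count tables, out of 55536 genes. No cutoff on measured values was used, but earlier results of these data were known when they were chosen. Bulk RNA sequencing covered 11 libraries of sorted epidermal cells. The cells came from dorsal skin, and the mice were males of the CD4Cre R26-tdT genotype on a C57Bl6/N background. In these mice Cre recombinase driven by CD4 switches on the red reporter tdTomato (tdT), so that cells which have expressed the Cre, and their descendants, are tdT+. All libraries, those of tdT- cells included, came from this genotype and from a CD49f+CD34+ gate after thermolysin digestion. CD49f is an integrin of basal keratinocytes and CD34 marks bulge cells of the mouse hair follicle. The gate was split by the surface protein Sca-1 and by tdT into 4 groups: 3 libraries of Sca-1+ tdT+ cells, 2 of Sca-1+ tdT- cells, 3 of Sca-1neg tdT+ cells and 3 of Sca-1neg tdT- cells. Each library pools 2 mice, and the mice were aged 29 weeks for replicate 1 of a group and 32 weeks for the others.

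Tissue kallikreins are secreted serine proteases that are made as inactive precursors. In the outer epidermis they cut the desmosomal proteins that hold dead cells together, so that the surface can be shed, and they activate one another in a cascade. Spink5 encodes LEKTI, a multidomain inhibitor of several of these proteases, and loss of the human gene causes Netherton syndrome, a disorder with excess epidermal protease activity. Human KLK5, a trypsin-like enzyme, can activate its own precursor and that of KLK7, and KLK7 is the main chymotrypsin-like enzyme of the cornified layer.

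Gene counts per library ran from 17409131 to 46542177. Krt5 and Krt14, the keratins of basal cells, were abundant in every library, with Krt5 at 8213 to 16210 CPM (counts-per-million, scaled by TMM) and Krt14 at 2615 to 14634 CPM. The tracer entry of the count tables ran from 133 to 307 CPM in 5 of the 6 libraries labelled tdT+ and from 2.54 to 4.89 CPM in the 5 tdT- libraries. At only 2.05 CPM, a tdT- level, stood the library labelled Sca-1neg tdT+ replicate 2. That library, Sca-1neg tdT+ replicate 1 and Sca-1neg tdT- replicate 2 also carried liver transcripts, with albumin (Alb) at 4393 to 9564 CPM there and 3.04 to 37.3 CPM in the remaining 8 libraries. The same 3 libraries, labelled male, held the X-inactivation RNA Xist at 211 to 1318 CPM, while 0.400 to 1.27 CPM stood in the remaining 8. All values below include these libraries unless stated.

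All 9 kallikrein genes lie on the plus strand of mouse chromosome 7 (GRCm38, GENCODE M21), within a span of 160.8 kb. From the low coordinate upward they run Klk14, Klk13, Klk11, Klk10, Klk9, Klk8, Klk7, Klk6 and Klk5, with Klk12, which is not among the 10 genes, between Klk13 and Klk11. Klk10 lies at chr7:43781035-43785410, Klk8 at chr7:43797577-43803826, Klk7 at chr7:43811294-43816359 and Klk5 at chr7:43841971-43851181. Spink5 lies on another chromosome. A noncoding gene on the minus strand, 2310002F09Rik, stretches from Klk14 to Klk8 and shares 382 of the 1540 exonic bases of Klk8 and 287 of the 1271 of Klk14. The strand setting of the counting is not given in the sources used here, so reads in these shared exons cannot be told apart. Its own level was 2.51 to 5.32 CPM in the 5 Sca-1+ libraries and 0.363 to 2.30 CPM in the 6 Sca-1neg libraries. Its part in the Klk8 values was not tested.

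Klk7, Klk8 and Klk10 are the members that passed the test between Sca-1 fractions, and their start regions are shown for that reason. Each run covers 250 bases before and 50 bases after the RefSeq start site (GRCm38.p6, plus strand, 5′ to 3′). The windows are chr7:43811044-43811343 for Klk7, chr7:43797327-43797626 for Klk8 and chr7:43780804-43781103 for Klk10. Capitals mark matches to AP-1 (TGANTCA), to the box TATAAA, to TTAAAA, to the grainyhead-like letters AACNNGTT or to ETS (CCGGAA), which were searched on both strands. The TTAAAA letters were chosen after the sequences were seen.
Klk7: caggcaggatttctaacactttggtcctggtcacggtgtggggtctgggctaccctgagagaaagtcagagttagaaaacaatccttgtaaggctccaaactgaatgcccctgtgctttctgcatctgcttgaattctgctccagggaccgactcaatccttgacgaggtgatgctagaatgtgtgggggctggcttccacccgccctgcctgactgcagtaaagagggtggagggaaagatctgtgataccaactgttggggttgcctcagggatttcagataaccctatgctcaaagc
Klk8: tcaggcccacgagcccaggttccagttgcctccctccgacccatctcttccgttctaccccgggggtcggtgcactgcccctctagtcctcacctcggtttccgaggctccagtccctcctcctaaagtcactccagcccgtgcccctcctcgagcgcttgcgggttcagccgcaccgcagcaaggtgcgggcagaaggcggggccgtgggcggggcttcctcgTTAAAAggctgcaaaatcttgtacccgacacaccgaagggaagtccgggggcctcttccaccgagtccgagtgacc
Klk10: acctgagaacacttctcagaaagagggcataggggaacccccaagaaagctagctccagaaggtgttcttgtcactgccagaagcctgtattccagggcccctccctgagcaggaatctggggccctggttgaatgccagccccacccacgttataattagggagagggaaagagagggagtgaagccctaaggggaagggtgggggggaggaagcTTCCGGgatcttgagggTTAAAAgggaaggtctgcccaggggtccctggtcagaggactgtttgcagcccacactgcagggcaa
The Klk8 window held TTAAAA at position -26, counted from the start site. The Klk10 window held TTAAAA at -17 and the ETS letters, read on the minus strand, at -34. None of the 5 letter patterns was in the Klk7 window. Over 32851 mouse promoters of the same length, TTAAAA was present in 19.2%, the ETS letters in 14.9%, TATAAA in 13.6%, TGANTCA in 7.81% and AACNNGTT in 4.2%.

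Klk7 was the most abundant kallikrein per exon length, averaging 26.9 RPKM (CPM per kilobase of exon) over the 11 libraries. It stood at 41.5, 76.2 and 67.6 CPM in Sca-1+ tdT+, and at 82.7 and 96.0 CPM in Sca-1+ tdT-. It stood at 40.1, 47.5 and 47.0 CPM in Sca-1neg tdT+, and at 21.3, 19.5 and 21.6 CPM in Sca-1neg tdT-. The Sca-1neg tdT- libraries lay below all the others, the Sca-1+ tdT- libraries lay above all the others, and the tdT+ groups of both fractions overlapped in the middle.

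Klk5, the trypsin-like starter of the cascade in humans, spread widely inside each group. It stood at 8.18, 7.10 and 30.9 CPM in Sca-1+ tdT+ and at 13.8 and 4.94 CPM in Sca-1+ tdT-. It stood at 10.1, 13.7 and 4.13 CPM in Sca-1neg tdT+ and at 4.55, 1.03 and 2.17 CPM in Sca-1neg tdT-. Replicate 3 of Sca-1+ tdT+ was the highest library, and each group overlapped the next in the order of means.

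Klk8, also called neuropsin, is a trypsin-like protease first studied in the mouse brain and also made in epidermis. It stood at 25.2, 55.3 and 29.3 CPM in Sca-1+ tdT+ and at 30.0 and 25.7 CPM in Sca-1+ tdT-. It stood at 7.80, 10.8 and 7.22 CPM in Sca-1neg tdT+ and at 3.82, 2.83 and 3.76 CPM in Sca-1neg tdT-. All 5 Sca-1+ libraries lay above all 6 Sca-1neg libraries, and within Sca-1neg the tdT+ libraries lay above the tdT- libraries. Klk10 gave the same separation of the fractions, with 20.9, 45.5 and 30.6 CPM in Sca-1+ tdT+ and, where Sca-1+ cells were tdT-, with 26.9 and 37.2 CPM. Its Sca-1neg libraries held 7.61, 12.4 and 9.75 CPM where tdT+ and 5.72, 9.75 and 7.15 CPM where tdT-. The tdT groups overlapped within each fraction for Klk10.

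Klk11, a secreted serine protease of the same cluster, was second in abundance per length, at 17.2 RPKM over all libraries. It stood at 63.9, 36.8 and 55.8 CPM in Sca-1+ tdT+ and at 50.3 and 19.4 CPM in Sca-1+ tdT-. It stood at 13.1, 23.7 and 6.34 CPM in Sca-1neg tdT+ and at 5.68, 0.449 and 2.24 CPM in Sca-1neg tdT-. Only the library labelled Sca-1neg tdT+ replicate 2 reached into the Sca-1+ range, and the Sca-1neg tdT- libraries were the 3 lowest.

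Klk9, Klk6 and Klk13 were low, at 1.92, 1.53 and 0.470 RPKM over all libraries. Klk9 stood at 4.34, 4.94 and 5.68 CPM in Sca-1+ tdT+ and at 6.39 and 6.07 CPM in Sca-1+ tdT-, against 0.0551 to 1.77 CPM in Sca-1neg tdT+ and 0.211 to 0.847 CPM in Sca-1neg tdT-. Its Sca-1 fractions did not overlap. Klk6, a trypsin-like protease, stood at 0.586, 3.80 and 0.723 CPM in Sca-1+ tdT+ and at 5.63 and 5.49 CPM in Sca-1+ tdT-. The Sca-1neg libraries held 0.937 to 2.30 CPM of Klk6 where tdT+ and 0.744 to 1.96 CPM where tdT-, so that the 2 Sca-1+ tdT- libraries stood above all others. Klk13 stayed between 0 and 2.51 CPM, and its groups overlapped except for Sca-1+ tdT- above Sca-1neg libraries.

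Klk14, a trypsin-like protease of human cornified epidermis, was close to undetected. It had 15 counts in all, 4 of them from the library labelled Sca-1neg tdT+ replicate 2, 3 in Sca-1neg tdT- replicate 1 and 8 in Sca-1neg tdT- replicate 3. It had 0 counts in the other 8 libraries, where a count of 0 allows 0.0793 to 0.170 CPM (3 counts, counting error only). Klk14 did not pass the filter on low counts and was not tested.

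Spink5, the inhibitor, lies on the plus strand at chr18:43963235-44022501 (GRCm38). It stood at 46.5, 23.2 and 131 CPM in Sca-1+ tdT+ and at 120 and 25.01 CPM in Sca-1+ tdT-. It stood at 36.4, 80.6 and 55.7 CPM in Sca-1neg tdT+ and at 29.4, 8.54 and 16.7 CPM in Sca-1neg tdT-. Within Sca-1neg the tdT+ libraries lay above the tdT- libraries, and each Sca-1+ group overlapped each Sca-1neg group.

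**Figure D1:**
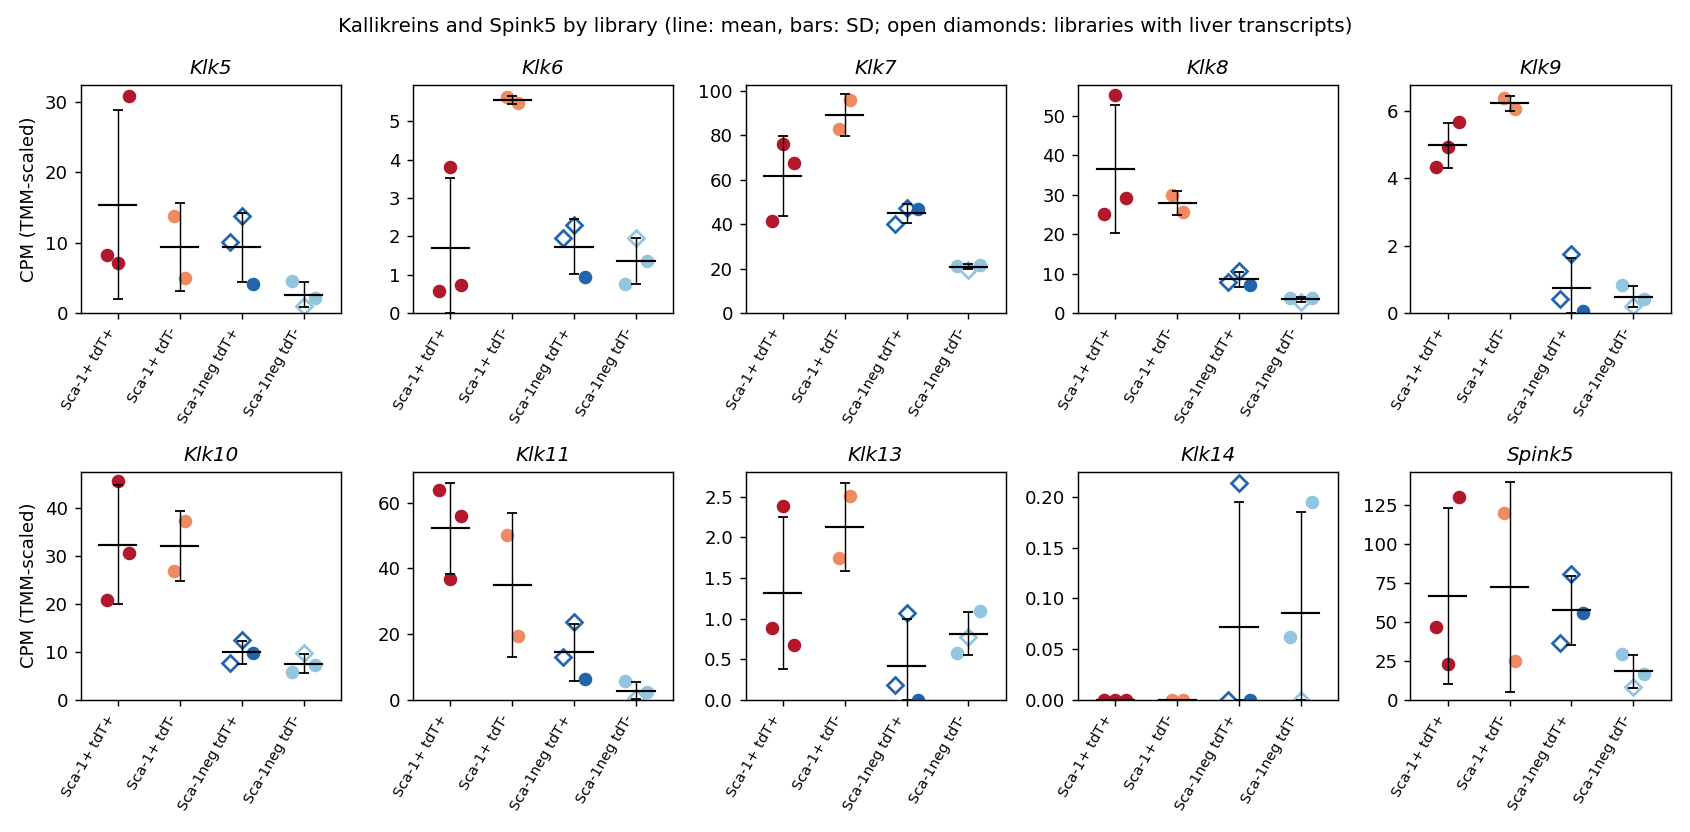
Level of each of the 10 genes in CPM (linear axes from 0, a separate scale per gene), 1 point per library, with the group mean as a line and the SD as bars cut at 0; open diamonds are the 3 libraries with liver transcripts. Klk8, Klk9 and Klk10 separate the Sca-1+ groups from the Sca-1neg groups, Klk7 is lowest in Sca-1neg tdT-, and Klk5 and Spink5 spread widely within groups.

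In tdT- cells, Klk7, Klk8 and Klk10 were higher in the Sca-1+ fraction than in the Sca-1neg fraction. Klk7 averaged 89.4 ± 9.43 CPM in Sca-1+ tdT- (SD, n = 2) and 20.8 ± 1.11 CPM in Sca-1neg tdT- (SD, n = 3). This is a log2 fold change of 2.10 ± 0.22 (approximate SE), with an adjusted p of 0.00215 in edgeR's quasi-likelihood test with Benjamini-Hochberg adjustment over all genes tested. Klk8 averaged 27.9 ± 3.08 CPM against 3.47 ± 0.556 CPM, an 8.02-fold difference (adjusted p = 0.00238). Klk10 averaged 32.0 ± 7.28 CPM against 7.54 ± 2.04 CPM, a 4.25-fold difference (log2 2.09 ± 0.35, adjusted p = 0.00898).

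In the same comparison 6 tested members did not pass, although their fitted values were also positive. Klk9 had a log2 fold change of 3.65 ± 0.99 (adjusted p = 0.0561) and Klk11 one of 3.63 ± 0.93 (adjusted p = 0.0620). Spink5 had 1.99 ± 0.89 (adjusted p = 0.256) and Klk5 had 1.86 ± 0.82 (adjusted p = 0.232). Klk6 had 2.03 ± 0.83 (adjusted p = 0.187) and Klk13 had 1.38 ± 1.19 (adjusted p = 0.561). Of all 20307 genes tested, 3.68% were called higher in this comparison, and 3 of the 9 tested kallikrein and inhibitor genes were. The groups did not overlap, with Sca-1+ higher, for 8 of the 9, against 19.9% of all genes tested. The median log2 fold change was 2.09 over the 9 and -0.13 over all genes tested.

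In tdT+ cells, Klk8 and Klk10 were again higher in the Sca-1+ fraction, and Klk7 did not pass. Klk8 averaged 36.6 ± 16.3 CPM in Sca-1+ tdT+ and 8.59 ± 1.90 CPM in Sca-1neg tdT+ (SD, n = 3 each), a log2 fold change of 2.09 ± 0.31 (edgeR quasi-likelihood, Benjamini-Hochberg adjusted p = 0.00194). Klk10 averaged 32.3 ± 12.4 CPM against 9.91 ± 2.38 CPM (log2 1.70 ± 0.33, adjusted p = 0.00712). Klk7 averaged 61.7 ± 18.1 CPM against 44.9 ± 4.12 CPM (log2 0.46 ± 0.20, adjusted p = 0.157), and passed only without Sca-1+ tdT+ replicate 1 (log2 0.68, adjusted p = 0.0232). Here 5.94% of all genes tested were called higher, and 2 of the 9 were.

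The 6 other tested members did not pass in tdT+ cells. Klk9 had a log2 fold change of 2.74 ± 0.92 (adjusted p = 0.0760), Klk11 one of 1.86 ± 0.83 (adjusted p = 0.175) and Klk13 one of 1.64 ± 1.14 (adjusted p = 0.362). Klk5 had 0.72 ± 0.74 (adjusted p = 0.551), Spink5 0.21 ± 0.80 (adjusted p = 0.889) and Klk6 -0.03 ± 0.75 (adjusted p = 0.983). The groups did not overlap, with Sca-1+ higher, for 4 of the 9 (Klk8, Klk9, Klk10 and Klk11), against 15.4% of all genes tested. The median log2 fold change was 1.64 over the 9 and -0.07 over all genes tested.

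Without the 3 libraries with liver transcripts, Klk9 and Klk11 passed beside Klk7, Klk8 and Klk10 in tdT- cells, with adjusted p of 0.00404 and 0.00886. In tdT+ cells Klk9, Klk11 and Klk13 passed beside Klk8 and Klk10, with adjusted p of 0.00386, 0.0363 and 0.0422, but the Sca-1neg tdT+ group then held 1 library, which was assumed to vary like the others. That library had 1 count of Klk9 and 0 counts of Klk13, so these calls are set against almost no reads and their fitted values are no measure of size. In the same fit of tdT+ cells, Klk5 had a log2 fold change of 1.88 (adjusted p = 0.285), Klk6 0.81 (adjusted p = 0.660), Klk7 0.37 (adjusted p = 0.462) and Spink5 0.25 (adjusted p = 0.921). In tdT- cells the log2 fold changes of all 9 without these libraries lay between 1.38 and 3.34. Leaving out only the library labelled Sca-1neg tdT+ replicate 2 added Klk9 to the calls in tdT+ cells (adjusted p = 0.0162) and in tdT- cells (adjusted p = 0.0222). In the 32-week libraries alone none of these members passed, with adjusted p from 0.0510 to 0.175 for Klk7, Klk8 and Klk10 in tdT- cells, and of 0.0575 for Klk8 and 0.0587 for Klk10 in tdT+ cells. Their log2 fold changes there were 2.22, 2.95 and 2.13 in tdT- cells and 2.23 and 1.78 in tdT+ cells. At 29 weeks there was 1 library per group and no test: Klk8 held 30.0 CPM in Sca-1+ tdT- against 3.82 CPM in Sca-1neg tdT-, and 25.2 CPM in Sca-1+ tdT+ against 7.80 CPM in Sca-1neg tdT+.

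**Figure D2:**
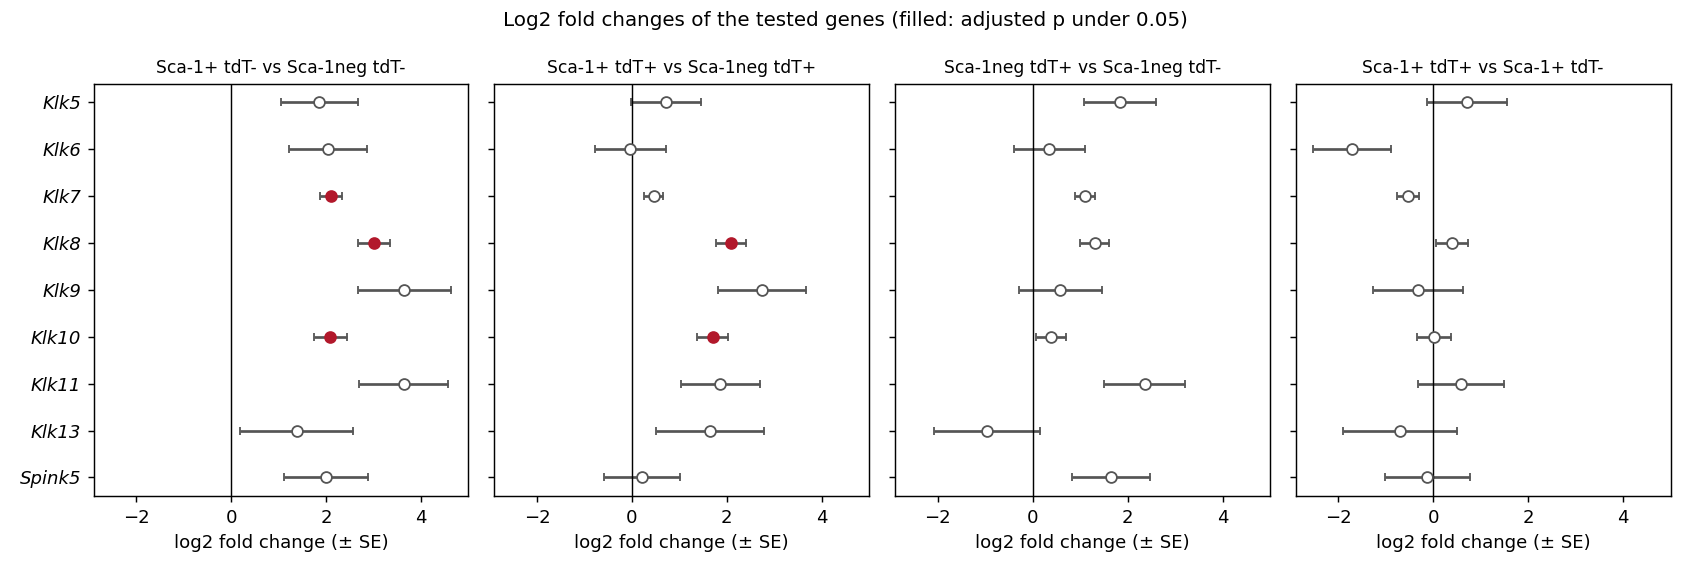
Log2 fold change of the 9 tested genes in 4 comparisons, the first-named group over the second, with approximate SE as bars; filled points passed an adjusted p of 0.05 in edgeR. Klk8 and Klk10 are filled in both comparisons of Sca-1 fractions, Klk7 only in tdT- cells, and no gene is filled in the comparisons of tdT+ with tdT- cells.

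Markers of other cell types were read beside these comparisons. All 6 bulge markers were lower in Sca-1+ tdT+ than in Sca-1neg tdT+ cells (median log2 -3.62) and 4 of 6 were lower in Sca-1+ tdT- than in Sca-1neg tdT- cells. Cd34, a gene of the sorting gate, averaged 27.4 ± 7.20 CPM in Sca-1+ tdT+ and 682 ± 193 CPM in Sca-1neg tdT+ (adjusted p = 5.43e-05 in edgeR), and 351 ± 44.6 CPM in Sca-1+ tdT- and 877 ± 246 CPM in Sca-1neg tdT- (adjusted p = 0.0367). The 6 bulge markers summed to 3227 to 5265 CPM in Sca-1+ tdT+ against 7782 to 11755 CPM in Sca-1neg tdT+, and to 4128 and 4898 CPM in Sca-1+ tdT- against 11949 to 14594 CPM in Sca-1neg tdT-. Of 5 basal markers, Krt5 (log2 0.68) and Krt14 (log2 1.90) were higher in Sca-1+ tdT+ than in Sca-1neg tdT+ cells, and none was called in tdT- cells. Of 4 Langerhans cell markers, Cd74 (306 ± 30.1 CPM against 19.1 ± 11.7 CPM) and H2-Ab1 (log2 3.45) were higher in Sca-1+ tdT- than in Sca-1neg tdT- cells. Cd207, the defining one, was at 9.34 and 21.4 CPM in Sca-1+ tdT- and at 0.927 to 1.49 CPM in Sca-1neg tdT- (adjusted p = 0.0993 in edgeR). Epcam went the other way, at 275 ± 40.6 CPM in Sca-1+ tdT- against 353 ± 21.6 CPM in Sca-1neg tdT-, and was not called. In tdT+ cells Epcam was the only one of the 4 called, and it was lower in Sca-1+ (226 ± 47.5 CPM against 382 ± 85.6 CPM, adjusted p = 0.0315 in edgeR).

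The summed level of a list of 12 suprabasal and cornifying genes, which includes Krt1 and Krt10, was 8001 to 10946 CPM in Sca-1+ tdT+ and 3348 to 7827 CPM in Sca-1+ tdT-. It was 1814 to 4495 CPM in Sca-1neg tdT+ and 527 to 1846 CPM in Sca-1neg tdT-. Of the 12, 3 were called higher in Sca-1+ tdT- than in Sca-1neg tdT- cells, beside 3.68% of all genes tested. In tdT+ cells 1 of the 12 was called higher in Sca-1+, near the 5.94% of all genes tested. The median log2 fold change of the 12 was 2.51 in tdT- cells and 0.99 in tdT+ cells. Over all genes tested the medians were -0.13 and -0.07. Krt1 and Krt10 made up most of the sum in Sca-1+ cells and were not called. Lor, the gene of the cornified envelope protein loricrin, was at 3.62, 3.29 and 13.7 CPM in Sca-1+ tdT+ against 8.16, 28.8 and 3.42 CPM in Sca-1neg tdT+. Among tdT- cells Lor was at 191 and 11.1 CPM in Sca-1+ against 41.2, 2.11 and 2.02 CPM in Sca-1neg. The 5 endothelial markers summed to 26.9 to 51.3 CPM in Sca-1+ tdT+ against 4.96 to 377 CPM in Sca-1neg tdT+, and to 1459 and 1520 CPM in Sca-1+ tdT- against 25.04 to 83.2 CPM in Sca-1neg tdT-. T cell markers summed to 380 to 928 CPM in Sca-1+ tdT+ against 73.9 to 81.0 CPM in Sca-1neg tdT+, and to 102 and 118 CPM in Sca-1+ tdT- against 6.07 to 21.4 CPM in Sca-1neg tdT-. Of the 7 T cell markers, 6 were called higher in Sca-1+ cells in each comparison. Of 6 upper follicle markers, Krt79 (log2 1.84) and Cst6 (log2 1.86) were higher in Sca-1+ tdT- than in Sca-1neg tdT- cells. In tdT+ cells Krt17 was the only one called, and it was lower in Sca-1+ (log2 -1.43). Of 6 inner root sheath markers, only Krt73 was called in tdT- cells, higher in Sca-1+ (log2 2.86). Among tdT+ cells Gata3 was higher in Sca-1+ (log2 1.44) and Krt73 was lower (log2 -2.29). The part of all these cell types in the kallikrein values was not tested, and in bulk RNA more cells of a type and more RNA per cell cannot be told apart.

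Along the cluster, the fitted Sca-1 differences were not uniform. In tdT+ cells the log2 fold change was 2.74 at Klk9 and 2.09 at Klk8, and 0.46, -0.03 and 0.72 at the next genes up, Klk7, Klk6 and Klk5. In tdT- cells the same 3 genes had 2.10, 2.03 and 1.86. Only Klk7 among them passed a test, and differences between neighbouring genes were not tested. The tdT+ values shifted with the Sca-1neg tdT+ libraries. Without the 3 libraries with liver transcripts, they were 6.37 at Klk9, 2.32 at Klk8, 0.37 at Klk7, 0.81 at Klk6 and 1.88 at Klk5. Klk7 thus stayed below Klk8, and among these listed genes Klk9 and Klk5 moved most. At lower coordinates, Klk13 went from 1.64 to 8.25 and Klk11 from 1.86 to 3.02, while Klk10 was 1.70 in both fits. The fit without these libraries left 1 Sca-1neg tdT+ library, which had 1 count of Klk9 and 0 counts of Klk13. The values of 6.37 and 8.25 are therefore no measure of size. Without replicate 2 of Sca-1neg tdT+ alone the tdT+ values were 4.38 at Klk9 and 1.11 at Klk5.

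**Figure D3:**
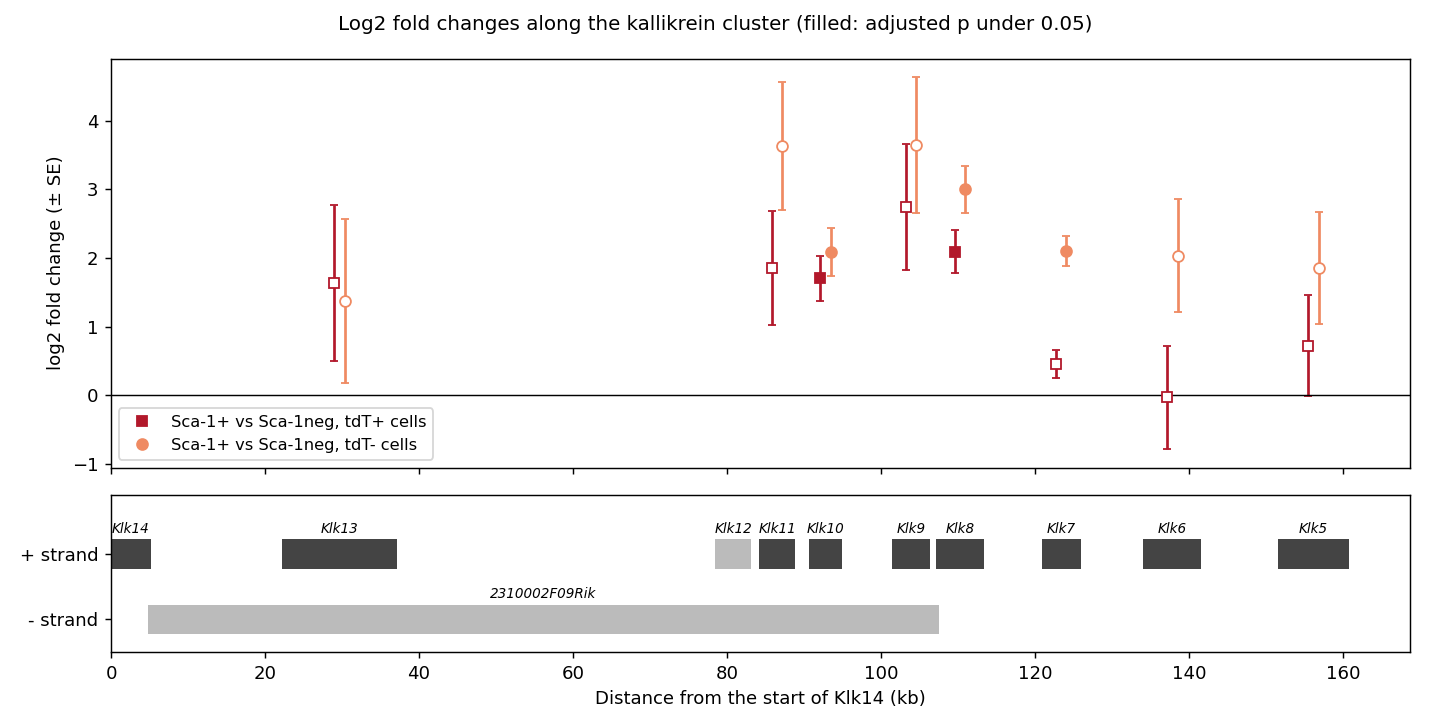
Upper panel: log2 fold change of Sca-1+ over Sca-1neg (± approximate SE) against distance in kb from the start of Klk14, for tdT+ cells (squares) and tdT- cells (circles), filled where adjusted p was under 0.05. Lower panel: the genes of the cluster by strand, members dark. The tdT+ values of Klk7, Klk6 and Klk5 at the right end are 0.46, -0.03 and 0.72. They are 0.37, 0.81 and 1.88 without the 3 libraries with liver transcripts, which the plot includes, but that fit holds only 1 Sca-1neg tdT+ library.

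Within the Sca-1neg fraction, no member passed the test between tdT+ and tdT- cells, in which 0.064% of all genes tested were called (13 genes, 1691 at an unadjusted p under 0.05). Klk7, Klk8, Klk11 and Spink5 nevertheless did not overlap: all 3 tdT+ libraries lay above all 3 tdT- libraries for each, as for 5.07% of all genes tested. Klk7 averaged 44.9 ± 4.12 CPM in tdT+ and 20.8 ± 1.11 CPM in tdT- (log2 1.11 ± 0.21, adjusted p = 0.118). Klk8 averaged 8.59 ± 1.90 CPM against 3.47 ± 0.556 CPM (log2 1.31, adjusted p = 0.209). Klk11 averaged 14.4 ± 8.77 CPM against 2.79 ± 2.66 CPM (log2 2.36 ± 0.85, adjusted p = 0.523), and Spink5 57.6 ± 22.2 CPM against 18.2 ± 10.5 CPM (log2 1.66 ± 0.82, adjusted p = 0.645; all SD, n = 3 each).

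The Wald test of DESeq2 called 3 of these in the Sca-1neg fraction: Klk7 (adjusted p = 0.000205), Klk8 (adjusted p = 0.00422) and Klk11 (adjusted p = 0.0164). It called 432 genes in all, against 13 in edgeR. When the library labelled Sca-1neg tdT+ replicate 2 was left out, the edgeR log2 fold change was 1.06 for Klk7, 1.11 for Klk8, 1.79 for Klk11 and 1.33 for Spink5, and none passed. Without the 3 libraries with liver transcripts, the values were 1.13 for Klk7, 0.93 for Klk8, 0.67 for Klk11 and 1.27 for Spink5, and none passed.

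Within the Sca-1+ fraction, no member passed between tdT+ and tdT- cells either, in edgeR or in DESeq2, while 2.74% of all genes tested were called in edgeR (556 genes, 2935 at an unadjusted p under 0.05). Klk6, Klk7 and Klk9 did not overlap, with all 3 tdT+ libraries below both tdT- libraries, as for 17.2% of all genes tested. Klk7 averaged 61.7 ± 18.1 CPM in tdT+ (n = 3) and 89.4 ± 9.43 CPM in tdT- (n = 2, both SD), a log2 fold change of -0.53 (adjusted p = 0.301 across all genes in edgeR). Klk6 had a log2 fold change of -1.71 ± 0.83 (adjusted p = 0.382), with 1.70 ± 1.82 CPM in tdT+ and 5.56 ± 0.103 CPM in tdT-. Values for Klk8, Klk10, Klk11, Klk5 and Spink5 lay between -0.12 and 0.71, and those of Klk9 and Klk13 were -0.32 and -0.70.

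The difference between the fractions was tested itself, as the log2 tdT effect in Sca-1+ minus that in Sca-1neg. Klk7 passed, at -1.64 ± 0.30 (adjusted p = 0.0457 in edgeR's quasi-likelihood test with Benjamini-Hochberg adjustment). The tdT effect on Klk7 was -0.53 in Sca-1+ cells and 1.11 in Sca-1neg cells. Only 0.468% of all genes tested were called in this direction, and Klk7 was the only member among the 9. Some cell type markers passed the same edgeR test in the same direction. They were 2 of 6 bulge genes, Cd34 (-3.31, adjusted p = 0.00695) and Tcf7l1 (-2.94, adjusted p = 0.00559), and 1 of 6 inner root sheath genes, the keratin Krt73 (-5.15, adjusted p = 0.0269). No gene of the other marker lists passed, the 5 endothelial markers included. The endothelial sum was 26.9 to 51.3 CPM in Sca-1+ tdT+, against 1459 and 1520 CPM in Sca-1+ tdT-. The part of these cell types in the Klk7 difference was not tested. The values of the other tested members ran from -2.07 at Klk6 to 0.26 at Klk13. The call rested on narrow margins: it was lost without any 1 of 8 of the 11 libraries, which are Sca-1+ tdT+ replicate 3, both Sca-1+ tdT- replicates, all 3 Sca-1neg tdT- replicates, Sca-1neg tdT+ replicate 1 and the library labelled Sca-1neg tdT+ replicate 2. The adjusted p was then 0.0571 to 0.228. Without the 3 libraries with liver transcripts the difference was -1.73 (adjusted p = 0.0828), and the log2 value stayed between -1.90 and -1.42 in all 19 alternatives.

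The balance of protease and inhibitor transcripts was read per exon length. Summed over the 9 kallikreins, RPKM came to 107, 146 and 143 in Sca-1+ tdT+, with sums of 136 and 120 in Sca-1+ tdT-. They were 49.9, 70.9 and 44.6 in Sca-1neg tdT+, and 26.5, 22.1 and 23.995 in Sca-1neg tdT-. The 4 groups did not overlap except for the Sca-1+ pair. Spink5 RPKM were 9.72, 4.84 and 27.3 in Sca-1+ tdT+ libraries, and 25.1 and 5.23 where Sca-1+ cells were tdT-, against 7.61, 16.8 and 11.6 in Sca-1neg tdT+ and 6.15, 1.78 and 3.49 in Sca-1neg tdT-. The kallikrein sum was 10.996, 30.3 and 5.23 times Spink5 in Sca-1+ tdT+, with values of 5.42 and 23.0 times in Sca-1+ tdT- libraries. It was 6.56, 4.21 and 3.84 times in Sca-1neg tdT+ and 4.31, 12.4 and 6.87 times in Sca-1neg tdT-. The ratio overlapped between all 4 groups. In each group it was highest in the library with the least Spink5, its denominator, which varied more within each group than the kallikrein sum did. Leaving out the 3 libraries with liver transcripts leaves the third value in Sca-1neg tdT+, and the first and the third in Sca-1neg tdT-, in each of these lists. The kallikrein sums then still do not overlap between the Sca-1 fractions.

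The make-up of the kallikrein sum differed in the share of Klk7. Klk7 held 20.5%, 27.4% and 24.98% of the summed RPKM in Sca-1+ tdT+, with shares of 32.1% and 42.2% in Sca-1+ tdT-. It held 42.4%, 35.4% and 55.5% in Sca-1neg tdT+, and 42.4%, 46.7% and 47.4% in Sca-1neg tdT-. The Sca-1+ tdT+ libraries were the 3 lowest, also without the libraries with liver transcripts. Klk11 held 17.1% to 40.8% in Sca-1+ tdT+ and 1.39% to 14.6% in Sca-1neg tdT-. These shares were not tested.

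**Figure D4:**
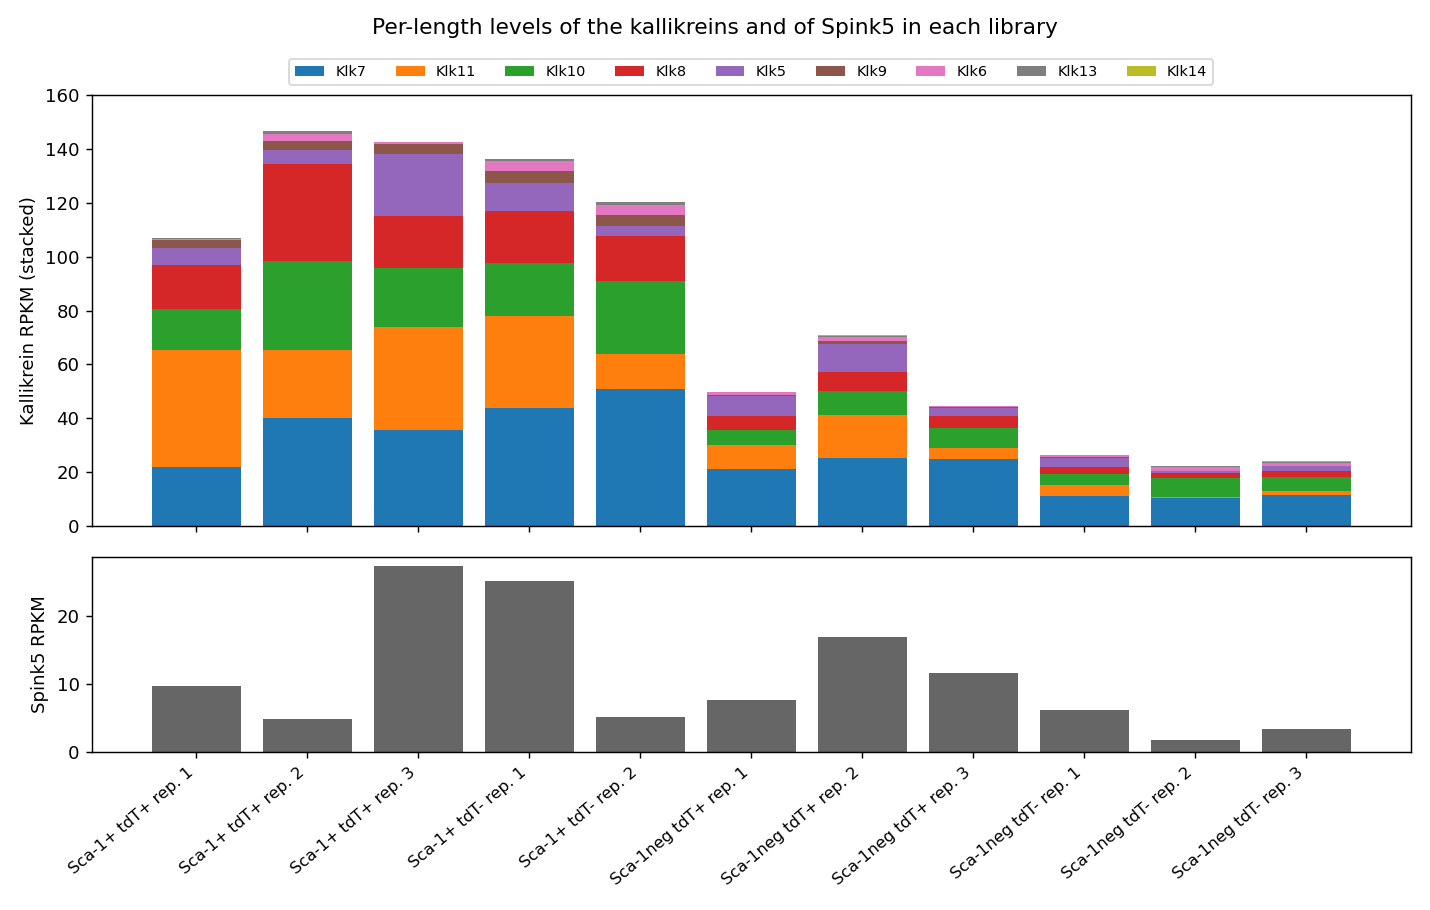
RPKM of the 9 kallikreins stacked per library (upper panel) and of Spink5 (lower panel), in linear scale from 0. The kallikrein sums reach 107 to 146 in Sca-1+ libraries and stay at 22.1 to 70.9 in Sca-1neg libraries, while Spink5 varies within every group.

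The members differed in how tightly replicates agreed. The within-group SD of log2 CPM was 0.27 for Klk7, 0.38 for Klk8 and 0.41 for Klk10, near the median of 0.38 over all genes tested. It was 0.96 for Klk5, 0.97 for Klk11 and 1.05 for Spink5. This order did not hold in every group. In Sca-1+ tdT+ the highest library was 1.74 times the lowest for Klk11, 2.19 times for Klk8 and 2.18 times for Klk10. Klk5 and Spink5 had the same highest library in each group: replicate 3 of Sca-1+ tdT+, replicate 1 of Sca-1+ tdT-, replicate 1 of Sca-1neg tdT- and the library labelled Sca-1neg tdT+ replicate 2. Spink5 was 5.64 times higher in its highest than in its lowest library in Sca-1+ tdT+, and Klk11 was 12.6 times higher in Sca-1neg tdT-.

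Cdsn and Krt10 had the same highest library in these groups. Cdsn encodes corneodesmosin, an adhesion protein that kallikreins cut, and Krt10 encodes the keratin of suprabasal cells. Cdsn stood at 10.8, 11.8 and 72.2 CPM in Sca-1+ tdT+ and at 67.4 and 13.2 CPM in Sca-1+ tdT-. It stood at 20.6, 67.8 and 29.2 CPM in Sca-1neg tdT+ and at 18.02, 5.84 and 8.07 CPM in Sca-1neg tdT-. Krt10 stood at 4725, 3204 and 5433 CPM in Sca-1+ tdT+ and at 3511 and 1334 CPM in Sca-1+ tdT-, against 1225, 2308 and 697 CPM in Sca-1neg tdT+ and 774, 101 and 170 CPM in Sca-1neg tdT-. Their part in the spread of Spink5, Klk5 and Klk11 was not tested.

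**Figure D5:**
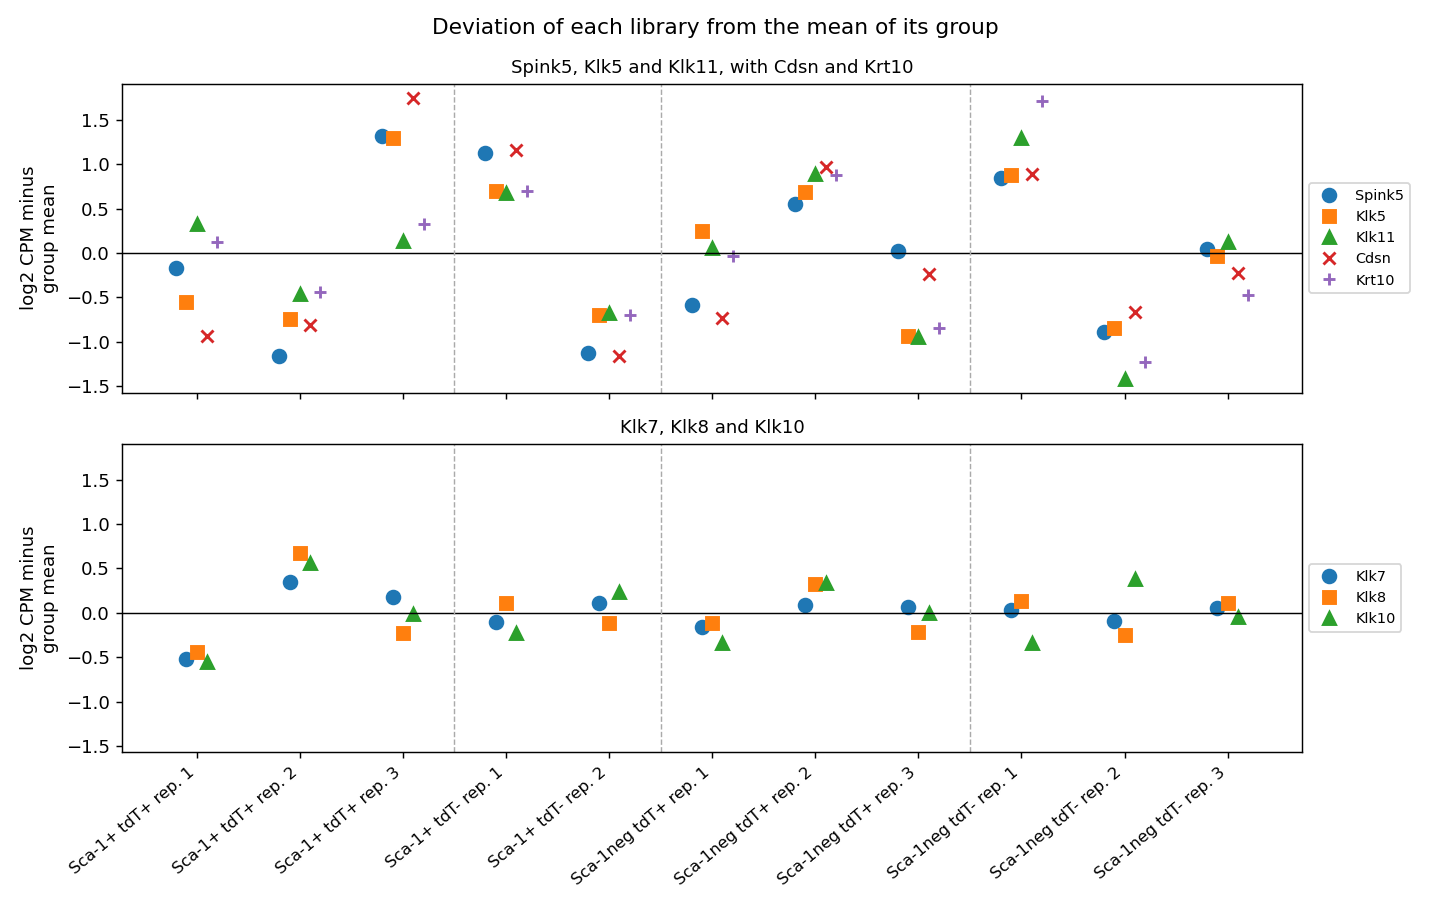
Log2 CPM of each library minus the mean of its group, for Spink5, Klk5, Klk11, Cdsn and Krt10 (upper panel) and for Klk7, Klk8 and Klk10 (lower panel). Spink5 and Klk5 are both highest in replicate 3 of Sca-1+ tdT+. Over all groups, Klk7, Klk8 and Klk10 have within-group SDs of 0.27 to 0.41, but in Sca-1+ tdT+ Klk11 spreads less than Klk8 and Klk10.

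Genes with the most similar pattern over the 11 libraries were ranked by the root mean square difference of centred log2 CPM, among 12214 genes of at least 5 CPM in a group. For Spink5 they were Tesc (0.395), Cdsn (0.424) and Bicdl2 (0.497), and for Klk5 Ankrd35 (0.475), Ly6g6c (0.480) and Tesc (0.484). For Klk11 they were Krt10 (0.302), Calm5 (0.320) and Sema3d (0.342), and for Klk10 Tes (0.212), Pip4k2a (0.275) and Ets1 (0.335). Klk8 was nearest to Arhgdib (0.313), AI467606 (0.354) and Tnf (0.361), and Klk7 to Eda2r (0.338), Ier5 (0.341) and Tgfa (0.342). Klk9 was nearest to Adamtsl1 (0.321), Lrrc8b (0.367) and Casp12 (0.375), and Klk6 to Abcg2 (0.380), Lgmn (0.385) and Il3ra (0.394). Among the members themselves the closest pairs were Klk7 with Klk10 (0.4998), Klk5 with Spink5 (0.528) and Klk8 with Klk10 (0.540).

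Other genes of epidermal proteolysis were taken from lists. Beside the counts from these lists, 3.68% of all genes tested were called higher in Sca-1+ among tdT- cells and 5.94% among tdT+ cells. Of 17 other kallikrein genes, only Klk12 passed the low-count filter, and it was not called in any comparison. Of 11 membrane-linked serine proteases and relatives, 9 were tested. In tdT- cells 3 were higher in Sca-1+ and 0 lower: Plau, the urokinase gene, at 86.4 ± 8.39 CPM against 29.6 ± 7.79 CPM (adjusted p = 0.0152), Tmprss4 (log2 3.38, adjusted p = 0.0302) and Tmprss11f (log2 2.79, adjusted p = 0.0491). In tdT+ cells Tmprss13 (77.2 ± 14.98 CPM against 38.5 ± 5.76 CPM, adjusted p = 0.00989) and Plau (log2 1.13, adjusted p = 0.0221) were higher. St14, the gene of matriptase, a membrane protease upstream of kallikreins in human and mouse epidermis, was at 107 ± 27.9 CPM in Sca-1+ tdT+ and 93.3 ± 1.59 CPM in Sca-1+ tdT- (adjusted p = 0.739). Within either fraction none of the 9 passed between tdT+ and tdT- cells.

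Among 19 other protease inhibitors, 15 were tested. Serpinb2, which inhibits urokinase, averaged 1929 ± 609 CPM in Sca-1+ tdT- and 156 ± 94.9 CPM in Sca-1neg tdT- (log2 3.63 ± 0.69, adjusted p = 0.0199). It averaged 3128 ± 899 CPM in Sca-1+ tdT+ and 584 ± 474 CPM in Sca-1neg tdT+ (log2 2.42 ± 0.63, adjusted p = 0.0372). Cst6, the inhibitor of cysteine proteases cystatin M/E, was higher in Sca-1+ tdT- than in Sca-1neg tdT- cells (log2 1.86, adjusted p = 0.0114). The counts were 2 higher and 0 lower of 15 in tdT- cells and 1 higher and 0 lower in tdT+ cells, and 0 within either fraction. Of all genes tested, 3.68% were called higher in tdT- cells and 5.94% in tdT+ cells. The 1 of 15 in tdT+ cells is thus near the share of all genes.

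Proteins that kallikreins cut were represented by 9 corneodesmosome genes, all tested. In tdT- cells 4 were higher in Sca-1+ and 0 lower: Pkp1 (log2 1.02, adjusted p = 0.00843), Dsg1b (log2 1.73, adjusted p = 0.0142), Dsg1a (log2 2.77, adjusted p = 0.0333) and Dsc1 (log2 2.98, adjusted p = 0.0456). In tdT+ cells the 4 were Pkp1 (log2 1.31, adjusted p = 0.000517), Dsg1b (log2 1.26, adjusted p = 0.0211), Jup (log2 0.82, adjusted p = 0.0285) and Perp (log2 0.66, adjusted p = 0.0353). The desmoglein genes Dsg1a and Dsg1b are close copies, so that reads can be split between them. Of 8 receptor, cytokine and peptide genes, 6 were tested: Il1b was higher in Sca-1+ tdT- than in Sca-1neg tdT- cells (log2 3.07, adjusted p = 0.0144), and the thrombin receptor gene F2r was higher in Sca-1+ tdT+ than in Sca-1neg tdT+ cells (log2 1.04, adjusted p = 0.00313). F2r was also higher in Sca-1+ tdT+ than in Sca-1+ tdT- cells, at 58.0 ± 8.65 CPM against 29.0 ± 5.02 CPM (adjusted p = 0.0220). F2rl1, the receptor PAR2 that human KLK5 can activate, did not pass any of the 5 tests.

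Of 24 genes of the cornified envelope and filaggrin processing, some of which are also among the suprabasal markers, 23 were tested. Sprr1a and Casp14 were higher in Sca-1+ than in Sca-1neg cells, at log2 2.53 and 2.46 in tdT- cells (adjusted p = 0.00227 and 0.00594) and at log2 0.89 and 1.67 in tdT+ cells (adjusted p = 0.0419 and 0.00973). Tgm5, a transglutaminase, went the other way, at 36.6 ± 12.7 CPM in Sca-1+ tdT+ against 617 ± 214 CPM in Sca-1neg tdT+ (log2 -4.07 ± 0.35, adjusted p = 0.000111). In tdT- cells it was at 153 ± 26.1 CPM in Sca-1+ and 765 ± 211 CPM in Sca-1neg (log2 -2.32, adjusted p = 0.00793). Within the Sca-1+ fraction Tgm5 was also lower in tdT+ than in tdT- cells (log2 -2.07, adjusted p = 0.00959), the only gene of the 23 called there. Krtdap was higher in Sca-1+ cells too, at 476 ± 128 CPM against 205 ± 25.6 CPM in Sca-1neg among tdT+ cells and at 268 ± 129 CPM against 71.1 ± 30.7 CPM among tdT- cells (adjusted p = 0.0492 and 0.0199). Asprv1, a protease of filaggrin processing, was higher in Sca-1+ than in Sca-1neg among tdT- cells, at log2 2.31 (adjusted p = 0.0127). The counts were 4 higher and 1 lower of 23 in tdT- cells and 3 higher and 1 lower in tdT+ cells. Of all genes tested, 2.06% were called lower in tdT- cells and 6.73% in tdT+ cells. No gene of these proteolysis, inhibitor, substrate and cornified envelope lists passed the test of the difference between fractions.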

How the data were processed

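The authors' deposited files hold raw counts per gene, 1 file per library. The submitters' processing notes name the build mm10 and, in no stated order, featureCounts, STAR, DESeq2 1.18.1, bcl2fastq 2.20.0.422 and FastQC. Not given in the sources used here are the annotation release, the strand setting and how multi-mapping reads were treated. One entry names no gene and was read as the tdT tracer (2.05 to 307 CPM of a library's gene total); it stayed out of library sizes and tests.

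Symbols came from GENCODE M21. In R 4.3.3, edgeR 4.0.16 kept 20307 genes (filterByExpr by group), scaled libraries by TMM and fitted a robust quasi-likelihood model of the 4 group means to all 11 libraries, with Benjamini-Hochberg adjustment over all genes and a threshold of 0.05. The SE is the absolute log2 fold change over the square root of F. RPKM use the union of annotated exons. CPM and RPKM are scaled by TMM; tracer CPM are not. The code was tested on simulated data.

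The members, gene lists and most alternatives were chosen with earlier results of these data known. Named list genes are up to 3 per list and comparison with the lowest p, or the 2 most abundant where none passed; genes that complete a count of 5 or fewer, and Cdsn and Krt10, were named after their values were seen. Alternatives were DESeq2 1.42.0, its size factors in edgeR, no filter, at least 10 CPM in 2 libraries, a replicate block, age as a term, the 32-week libraries, only the groups compared, no liver libraries, and each library left out. No library copied another: over 55 pairs, chi-square per degree of freedom was at least 51.4. Libraries pool 2 mice each, and p-values measure the spread between such pools.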

Additional observations from a re-analysis of the deposited data

Results flagged for a closer look

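The tdT effect on Klk7 differed between the Sca-1 fractions, by a test of the difference itself: -1.64 on the log2 scale, the effect in Sca-1+ cells minus that in Sca-1neg cells (adjusted p = 0.0457 in edgeR's quasi-likelihood test). All 3 Sca-1+ tdT+ libraries lay below both Sca-1+ tdT- libraries, and all 3 Sca-1neg tdT+ libraries lay above all 3 Sca-1neg tdT- libraries. The sign was the same in 19 of 19 alternatives and the call held in 9 of them. The tracer level of the library labelled Sca-1neg tdT+ replicate 2 goes against its label; without it the value was -1.60 and the adjusted p 0.0943.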

How the results depend on the processing

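The count of members called was 0 in Sca-1+ tdT+ against Sca-1+ tdT- cells under all 20 alternatives. In Sca-1+ tdT- against Sca-1neg tdT- cells it was 3, and became 5 with DESeq2, 5 without the 3 libraries with liver transcripts and 0 in the 32-week libraries alone, where Sca-1+ tdT- held 1 library; leaving out 1 library gave 2 to 4, the 2 coming without Sca-1+ tdT- replicate 2 (Klk10 lost, adjusted p = 0.0507 in edgeR). In Sca-1+ tdT+ against Sca-1neg tdT+ cells it was 2, and became 4 with DESeq2, 5 without the liver libraries and 0 at 32 weeks alone; leaving out 1 library gave 2 to 3. In Sca-1neg tdT+ against Sca-1neg tdT- cells it was 0, and became 3 with DESeq2 and 1 with no low-count filter; leaving out 1 library gave 0 to 1, the 1 being Klk7 without Sca-1+ tdT+ replicate 1. The difference between fractions had 1 call, and 0 at 32 weeks alone and 0 without the liver libraries; leaving out 1 library gave 0 to 1. The cause of these shifts was not tested. Over single members, 838 values kept their side of the threshold, 22 passed newly and 16 no longer passed. No called value changed sign, but some values that were not called did. Klk10 in Sca-1+ tdT+ against Sca-1+ tdT- cells kept its sign in 11 of 20 alternatives, and Klk6 in Sca-1+ tdT+ against Sca-1neg tdT+ cells in 13 of 19. The count of all genes called ran from 116 to 1665 for Sca-1+ tdT- against Sca-1neg tdT-, 1591 to 3040 for Sca-1+ tdT+ against Sca-1neg tdT+, 0 to 14 for tdT in Sca-1neg, 145 to 791 for tdT in Sca-1+ and 26 to 347 for the difference, over libraries left out in turn. Replicate numbers were not used as pairs in the main model. The correlation of deviations between same-numbered libraries ran from -0.51 to 0.71, which does not settle whether they pair the samples. Replicate 1 was the 29-week library in each group. The replicate block left the member counts at 3, 2, 0, 0 and 1, with the Klk7 difference at -1.70 (adjusted p = 0.0362). The difference could not be fitted with only the groups compared. Depth limits Klk14, Klk13 and the Sca-1neg values of Klk9.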
